A study of Mus musculus with 16 samples.

Results

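The 9 genes described here mark the neurons of the gut wall: Tubb3, Uchl1, Elavl4, Prph, Vip, Nos1, Chat, Tac1 and Ret. They were chosen by symbol, each matched to 1 Ensembl identifier, from 39328 genes measured in whole colon. The mice were adult, wild-type and of the outbred ICR stock. The vaginal delivery (VD) and cesarean section (CS) animals either drank normal water (groups CON_VD and CON_CS) or 3% dextran sulfate sodium (DSS), a polymer that damages the colon lining, for 8 days (DSS_VD and DSS_CS). Each of the 4 groups had 4 RNA-seq libraries, and the series title names susceptibility to colitis after cesarean birth as the question. Whether each library is a separate mouse is not stated in the labels; the p-values therefore cover the spread among these libraries, which may be technical.

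The enteric nervous system is a network of neurons and glia in the gut wall, lying mostly in the myenteric plexus between the muscle layers and in the submucosal plexus beneath the mucosa. Its neurons set motility, secretion and blood flow through transmitters: vasoactive intestinal peptide and nitric oxide relax the muscle, while acetylcholine and substance P contract it. The network is built by migrating neural crest cells that need the receptor tyrosine kinase Ret. Some of these genes are also used outside neurons: Tac1 and Uchl1 in enteroendocrine cells, Chat in tuft cells and Ret in some immune cells.

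Levels are FPKM, fragment numbers scaled by gene length and library size, so levels of different genes can be set side by side. The summed FPKM of a library ranged from 280135 to 343423, the read depth is unknown, and the 9 genes made up 0.00627% to 0.0826% of a library's FPKM. Differences were tested with limma on log2(FPKM + 1), which understates changes of low genes, and a gene is called changed at an adjusted p under 0.05 over all genes tested. The defining neuron markers Elavl4 and Snap25 were above 0 in each library. In 3 libraries the prostate gene Pbsn stood out: it was at 185 FPKM in CON_CS replicate 1, at 128 in DSS_CS replicate 3 and at 1355 in DSS_CS replicate 4. For the 9 genes, counts of calls that rest on them are given with and without them. For the other gene lists only some counts are given both ways. In bulk tissue more neurons, more RNA per neuron and a smaller share of other tissue cannot be told apart.

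The bases just upstream of a start site are shown for 3 genes, since Elavl4 and Prph followed the rest of the group most closely within the groups and Vip had the highest level. The sequences are RefSeq's, on GRCm38.p6, read 5′ to 3′ on the strand of the gene and ending at the base before its start. Capitals mark TGACGTC (the core of the cyclic AMP response element), its shorter form TGACG, and TATAAA (the TATA box), each searched on both strands.
Vip, chr10:5638968-5639217, + strand: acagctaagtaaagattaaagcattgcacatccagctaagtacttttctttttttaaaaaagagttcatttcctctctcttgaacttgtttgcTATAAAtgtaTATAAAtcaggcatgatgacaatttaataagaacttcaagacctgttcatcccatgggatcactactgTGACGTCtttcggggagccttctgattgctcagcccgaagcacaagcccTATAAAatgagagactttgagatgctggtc
Prph, chr15:99054924-99055173, + strand: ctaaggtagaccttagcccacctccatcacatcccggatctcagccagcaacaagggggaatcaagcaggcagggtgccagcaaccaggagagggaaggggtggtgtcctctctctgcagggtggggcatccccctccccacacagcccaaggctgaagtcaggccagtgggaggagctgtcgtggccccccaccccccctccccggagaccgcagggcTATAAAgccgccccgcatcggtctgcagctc
Elavl4, chr4:110351912-110352161, - strand: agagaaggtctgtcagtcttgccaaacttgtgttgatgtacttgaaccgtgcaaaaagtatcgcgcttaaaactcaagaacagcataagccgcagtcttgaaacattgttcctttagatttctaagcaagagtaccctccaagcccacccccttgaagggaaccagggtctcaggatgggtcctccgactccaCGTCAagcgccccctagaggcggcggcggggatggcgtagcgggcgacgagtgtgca

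Vip held TGACGTC at -79 and TATAAA at -157, -147 and -30, counted from the start site. TGACGTC was present in 2.78% of the 32851 promoter windows of 250 bases in the table and TATAAA in 12.4%. Prph held TATAAA at -31 and the GC box GGGCGG, read on the other strand as CCGCCC, at -24; 32.7% of windows held a GC box. Elavl4 held the short form TGACG, on the other strand, at -57 in the window shown, that of the most upstream of several start sites. In further Elavl4 windows it stood at -130 or -146, and the window chr4:110286835-110287084 held none. The short form, which lies inside TGACGTC, was in 17.8% of windows and also in those of Tac1, Nos1 and Chat. The base composition differed, with 38.4% G and C in the Vip window, 65.2% in that of Prph and 53.6% in the Elavl4 window shown. The further Elavl4 windows held 44.0% to 46.8%. The letters TTCAGCACC, 1 side of the RE1 element bound by the neuronal repressor REST, were in 0.301% of windows and in none of the 8 genes with an entry. These matches are a description of the letters and show no binding.

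The structural and pan-neuronal genes were highest in the DSS_CS libraries. Tubb3 (ENSMUSG00000062380, chr8:123411424-123422015, + strand of GRCm38) encodes class III beta-tubulin, the neuronal tubulin; it overlaps the gene model Gm20388 on the same strand, so some reads may belong to either. Tubb3 was at 3.64, 2.71, 3.38 and 2.80 FPKM in CON_VD and at 2.04, 2.14, 1.23 and 1.30 in CON_CS. Under DSS it was at 4.66, 5.38, 5.63 and 6.08 in DSS_VD and at 15.2, 25.9, 13.8 and 10.3 in DSS_CS. No 2 of the groups overlapped: CON_CS was lowest, then CON_VD, DSS_VD and DSS_CS. Under DSS the CS libraries were 1.35 ± 0.24 (log2, SE) above the VD libraries (adjusted p = 0.0313), a ratio of mean FPKM of 2.99.

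Prph (ENSMUSG00000023484, chr15:99055174-99058978, + strand) encodes peripherin, an intermediate filament of peripheral neurons. Its levels were 4.90, 4.47, 5.23 and 4.68 FPKM in CON_VD, 2.89, 3.72, 2.46 and 3.15 in CON_CS, 8.84, 8.89, 8.18 and 9.11 in DSS_VD, and 22.4, 36.8, 14.5 and 11.2 in DSS_CS. As for Tubb3, the groups did not overlap, from CON_CS as the lowest to DSS_CS as the highest, and DSS_CS varied far more (SD 11.4) than DSS_VD (SD 0.399). The difference under DSS was 1.05 ± 0.31 (log2, SE) and missed the threshold (adjusted p = 0.0553).

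Uchl1 (ENSMUSG00000029223, chr5:66676091-66687234, + strand), which encodes the ubiquitin hydrolase known as PGP9.5, overlaps its antisense transcript Uchl1os, and the strand of the reads is not given. It was at 7.16, 4.46, 6.85 and 4.22 FPKM in CON_VD, 3.16, 3.73, 2.82 and 2.88 in CON_CS, 6.85, 6.36, 7.24 and 8.98 in DSS_VD, and 16.6, 26.6, 10.5 and 10.7 in DSS_CS. CON_VD and DSS_VD overlapped, while CON_CS lay below and DSS_CS above all other libraries. Elavl4 (ENSMUSG00000028546, chr4:110203722-110351909, - strand), which encodes the neuronal RNA-binding protein HuD, was low: 0.322 to 0.581 FPKM in CON_VD, 0.207 to 0.495 in CON_CS, 0.652 to 0.889 in DSS_VD and 1.12 to 3.03 in DSS_CS. Under DSS the CS excess was 0.95 ± 0.27 for Uchl1 (adjusted p = 0.0524) and 0.66 ± 0.20 for Elavl4 (adjusted p = 0.0554), neither past the threshold.

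**Figure D1:**
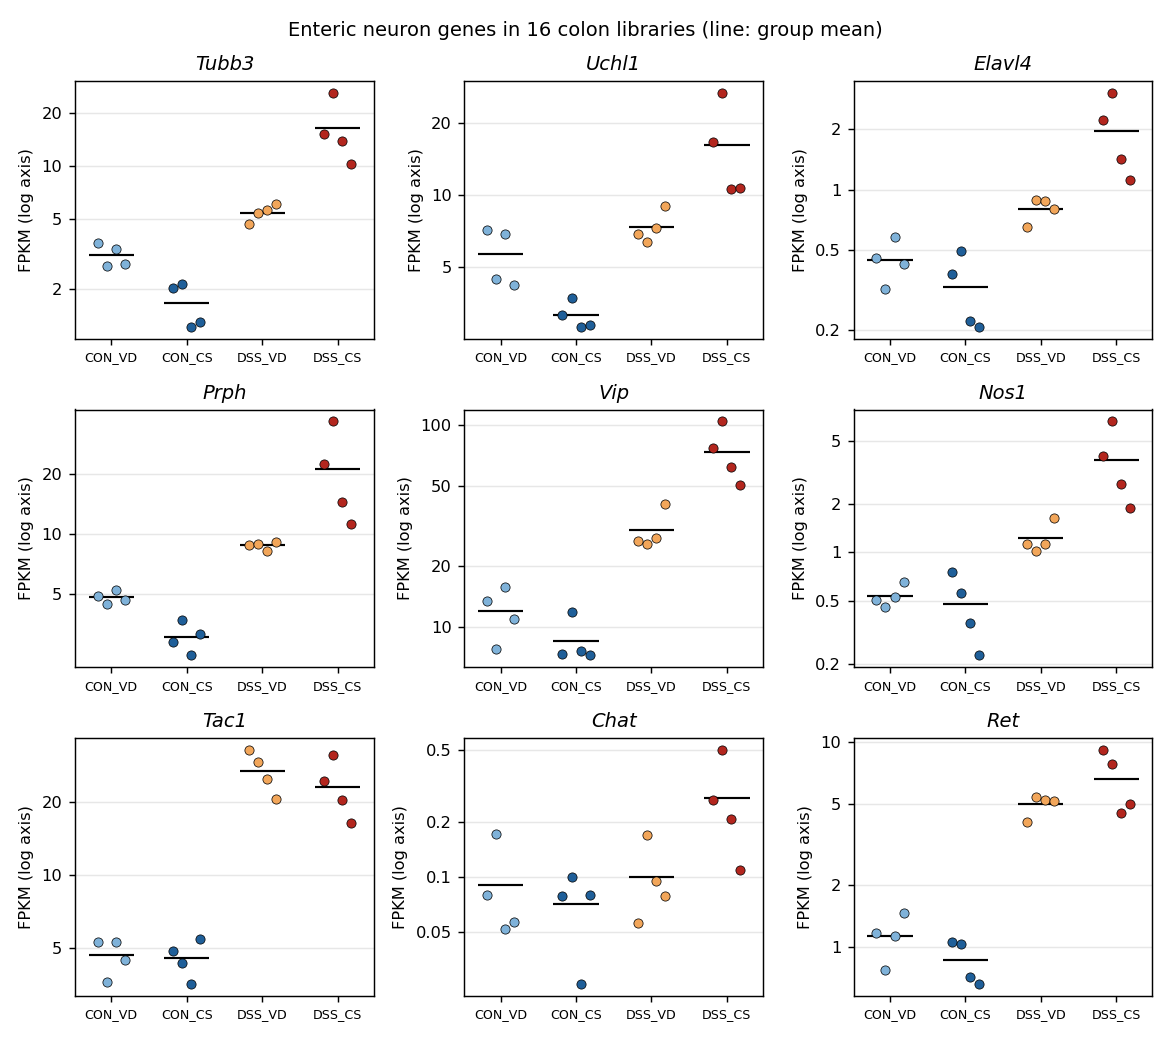
FPKM on a log axis of each of the 9 genes in the 16 libraries, by group, with points for libraries in replicate order from left to right and a line at the group mean. In DSS_CS, 6 genes lie wholly above DSS_VD, whereas Tac1 lies at 16.4 to 31.4 FPKM in DSS_CS and 20.6 to 33.0 in DSS_VD.

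Of the genes of inhibitory motor neurons, Vip (ENSMUSG00000019772, chr10:5639218-5647617, + strand), the precursor of vasoactive intestinal peptide, had the highest mean of the 9 genes in each group. It was at 13.4, 7.80, 15.8 and 10.9 FPKM in CON_VD and at 7.30, 11.8, 7.55 and 7.21 in CON_CS, which overlapped. Under DSS it was at 26.5, 25.6, 27.6 and 40.5 in DSS_VD and at 76.7, 104, 61.9 and 50.3 in DSS_CS, with no overlap between these groups or with water. Vip was higher in CS than in VD under DSS by 1.23 ± 0.24 (log2, SE; adjusted p = 0.0313), and the mean FPKM was 2.44 times as high.

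Nos1 (ENSMUSG00000029361, chr5:117781032-117958840, + strand) encodes the neuronal nitric oxide synthase and overlaps the antisense Gm26995 and the model Gm37028. Under water it stayed at 0.455 to 0.652 FPKM in CON_VD and 0.227 to 0.750 in CON_CS. Under DSS it was at 1.13, 1.01, 1.12 and 1.65 in DSS_VD and at 3.98, 6.62, 2.68 and 1.90 in DSS_CS. The DSS_CS libraries lay above all others, by 1.02 ± 0.27 (log2, SE) against DSS_VD (adjusted p = 0.0455). The ratio of Vip to Nos1 spanned 15.8 to 26.6 in DSS_CS and 23.4 to 25.2 in DSS_VD.

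Of the genes of excitatory neurons, Tac1 (ENSMUSG00000061762, chr6:7554879-7565834, + strand), the precursor of substance P and neurokinin A, did not follow that pattern. It was at 5.29, 3.61, 5.32 and 4.45 FPKM in CON_VD and at 4.87, 4.34, 3.55 and 5.46 in CON_CS. Under DSS it was at 33.0, 29.3, 25.0 and 20.6 in DSS_VD and at 24.6, 31.4, 20.5 and 16.4 in DSS_CS. The delivery groups overlapped under both drinks, and the DSS libraries lay above the water libraries. The CS minus VD difference under DSS was -0.23 (log2; 95% interval -0.71 to 0.26; adjusted p = 0.500), and without the DSS_CS libraries that held Pbsn it was 0.060.

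Set against Vip in the same library, Tac1 stood at 0.301 to 0.331 of the Vip level in DSS_CS and at 0.509 to 1.25 of it in DSS_VD. Under water the ratio was 0.337 to 0.463 in CON_VD and 0.369 to 0.757 in CON_CS. The ratio of these levels was not tested. Vip and Tac1 ranges overlapped in DSS_VD and in no other group. Chat (ENSMUSG00000021919, chr14:32408203-32465989, - strand), which makes acetylcholine, was the lowest of the 9 genes in every group. It was at 0.0520 to 0.172 FPKM in CON_VD, 0.0259 to 0.1005 in CON_CS, 0.0558 to 0.169 in DSS_VD and 0.109 to 0.501 in DSS_CS. Chat was never at 1 FPKM and was tested in no comparison. Slc18a3, the acetylcholine transporter of synaptic vesicles, lies within Chat on the same strand; its mean was 0.791 in DSS_VD and 1.97 in DSS_CS, a called difference of 0.70 ± 0.18 (log2, SE; adjusted p = 0.0418), though it passed the filter through its DSS_CS libraries alone.

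**Figure D2:**
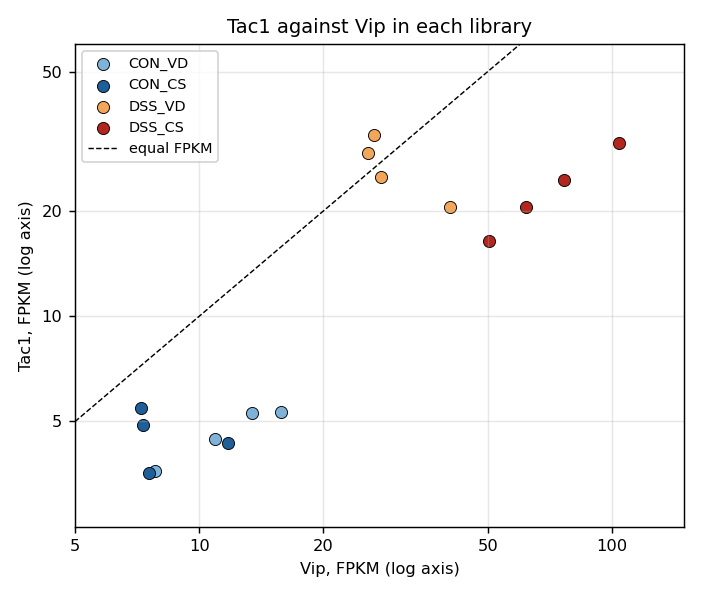
Tac1 against Vip in FPKM, both on log axes, 1 point per library, coloured by group, with a dashed line at equal levels. The DSS_CS points lie to the right at about the Tac1 level of DSS_VD, at Tac1 to Vip ratios of 0.301 to 0.331.

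Ret (ENSMUSG00000030110, chr6:118151745-118197718, - strand), the receptor for glial cell line-derived neurotrophic factor ligands, was at 1.17, 0.778, 1.13 and 1.47 FPKM in CON_VD and at 1.06, 1.04, 0.713 and 0.662 in CON_CS. Under DSS it was at 4.09, 5.37, 5.22 and 5.15 in DSS_VD and at 9.17, 7.79, 4.49 and 4.99 in DSS_CS. DSS_CS replicates 1 and 2 were above every DSS_VD library, and replicates 3 and 4 were among them. The difference was 0.31 (log2; 95% interval -0.15 to 0.77; adjusted p = 0.327).

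In all, 8 of the 9 genes passed the filter on low values in the delivery comparison under DSS, which asked for at least 1 FPKM in at least 4 libraries; Elavl4 passed through its DSS_CS libraries alone. Of these, 3 were called higher in CS (Tubb3, Vip and Nos1) and none lower, beside 7.89% of the 14313 genes tested called higher and 5.54% called lower. In 6 of the 9 genes every DSS_CS library lay above every DSS_VD library, against 15.3% of all genes tested. The median difference of the 8 was 0.98 (log2), beside 0.06 over all genes. The calls rested on the set of libraries: none of the 9 was called without DSS_VD replicate 1, DSS_VD replicate 2 or DSS_CS replicate 3, 1 without DSS_CS replicate 2 and 4 without DSS_CS replicate 4. Nos1 was lost without any 1 library other than DSS_CS replicate 4 and under median-of-ratios scaling (adjusted p = 0.0510), and all 3 calls were lost with no filter. Without the 2 DSS_CS libraries that held Pbsn, none was called, while the differences were larger: 1.70 for Tubb3 (adjusted p = 0.0607), 1.57 for Vip (adjusted p = 0.0619) and 1.47 for Nos1 (adjusted p = 0.0619).

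The response to DSS differed by delivery in most of these genes. Tested as an interaction on all 16 libraries, the DSS response was larger in CS than in VD for 6 of the 8 genes that passed the filter, beside 6.68% of 15233 genes tested. Elavl4, 1 of the 6, passed through its DSS_CS libraries alone, the group that sets the direction of the interaction. The difference of responses was 1.99 ± 0.29 (log2, SE) for Tubb3 (adjusted p = 0.00398), 1.67 ± 0.34 for Vip (adjusted p = 0.0118), 1.61 ± 0.34 for Uchl1 (adjusted p = 0.0119) and 1.58 ± 0.34 for Prph (adjusted p = 0.0135). It was 1.09 ± 0.31 for Nos1 (adjusted p = 0.0360) and 0.79 ± 0.23 for Elavl4 (adjusted p = 0.0357). Tac1 had no called difference (-0.20; 95% interval -0.76 to 0.37), nor had Ret (0.50; 95% interval -0.02 to 1.03). Over all genes, 1017 were called higher and 998 lower, against 612 and 906 after each library was rescaled to a sum of 1000000 FPKM. The interaction takes in the CS minus VD difference under water. That was -0.64 for Tubb3, -0.66 for Uchl1, -0.53 for Prph and -0.44 for Vip, none of them called. For Uchl1 and Prph the delivery difference under DSS was not called either.

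Tubb3, Vip, Uchl1 and Prph stayed called in each of the 23 alternatives run for the interaction. Nos1 was lost without CON_VD replicate 1, 3 or 4, CON_CS replicate 2, 3 or 4, or DSS_VD replicate 1 or 2, with adjusted p from 0.0529 to 0.0692, and after rescaling or with no filter. Elavl4 was lost without CON_VD replicate 1 or 3, CON_CS replicate 1, 3 or 4, or DSS_VD replicate 1 or 2, with adjusted p from 0.0529 to 0.0709, and with no filter. Without the 3 libraries that held Pbsn, Ret was called as well, at 0.91 (adjusted p = 0.0327), and Elavl4 no longer passed the filter.

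**Figure D3:**
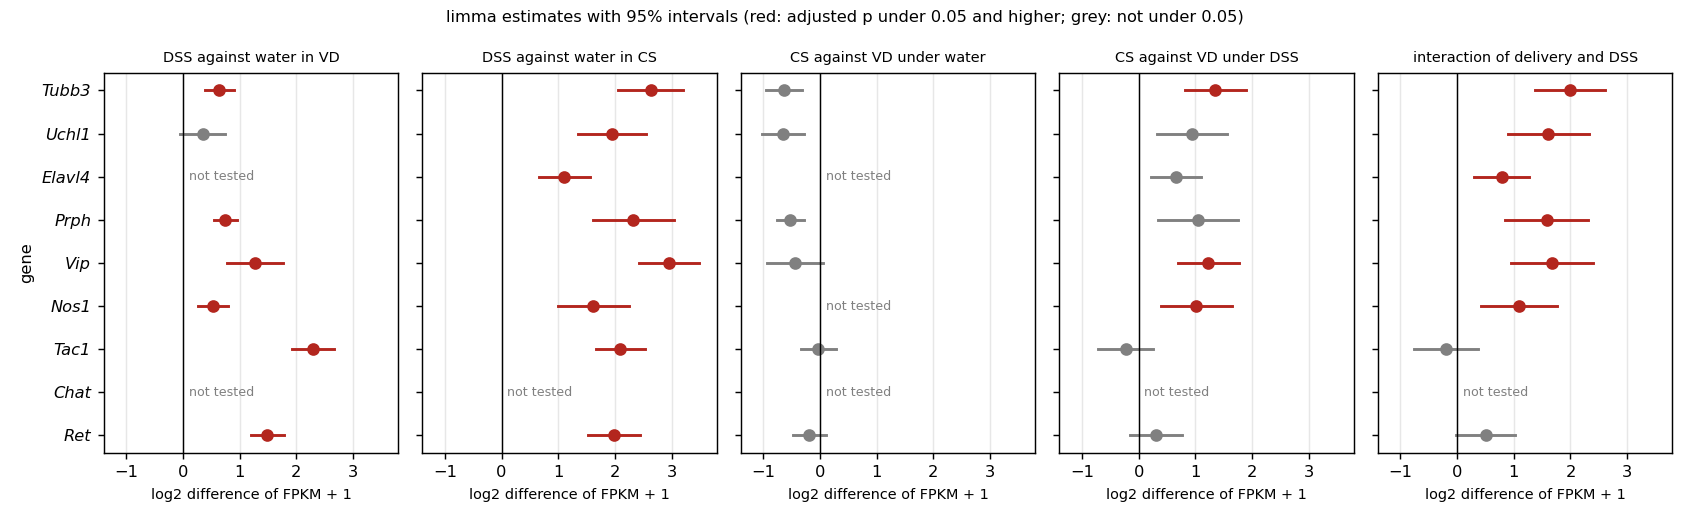
Differences in log2(FPKM + 1) with 95% intervals for each gene (rows) in the 5 comparisons (panels), from limma, with red for adjusted p under 0.05 and grey otherwise. Tac1 lies at 2.29 and 2.10 in the DSS panels and near 0 in the delivery and interaction panels, whereas Tubb3 lies at 0.64 after DSS in VD and 2.63 in CS.

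In VD mice, DSS was accompanied by higher levels of 6 of the 7 genes that passed the filter, beside 24.0% of 13933 genes called higher. Tac1 had the largest difference of the 7, at 2.29 ± 0.16 (log2, SE; adjusted p = 2.94e-05), followed by Ret at 1.48 ± 0.13 (adjusted p = 6.51e-05) and Vip at 1.27 ± 0.22 (adjusted p = 0.00154). Prph rose by 0.75, Tubb3 by 0.64 and Nos1 by 0.53. Nos1, which passed the filter through its DSS libraries alone, was lost when all 4 groups were fitted together (adjusted p = 0.0632). Uchl1 was not called (0.35; 95% interval -0.05 to 0.74), and Elavl4 and Chat were not tested. DSS_VD lay wholly above CON_VD in 7 of the 9 genes, Elavl4 among them, against 22.2% of all genes tested. In the same comparison 7 of 9 smooth muscle genes and 4 of 10 epithelial genes tested were called lower, beside 2364 of 13933 genes. Of 10 enteroendocrine genes 6 were called higher, 1 of them having passed the filter through its DSS_VD libraries alone. The part of these cells in the result was not tested.

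In CS mice all 8 genes tested were higher under DSS, beside 34.4% of 14372 genes called higher. Vip differed by 2.95 ± 0.23 (log2, SE), Tubb3 by 2.63 ± 0.25, Prph by 2.33 ± 0.31 and Tac1 by 2.10 ± 0.19, with adjusted p between 9.03e-06 and 2.12e-04. Ret rose by 1.99, Uchl1 by 1.95, Nos1 by 1.62 and Elavl4 by 1.11, with the last 2 passing the filter through DSS_CS alone. All 9 genes, Chat included, had DSS_CS wholly above CON_CS, against 32.9% of all genes tested. The mean FPKM of Vip was 8.67 times and that of Tubb3 9.70 times its CON_CS level. Without the 3 libraries that held Pbsn, 5 of the genes passed the filter and all 5 were called, Vip at 3.23 and Tubb3 at 3.05 among them. Among marker genes of other cells, 10 of 10 epithelial and 3 of 10 smooth muscle genes were called lower, beside 3729 of 14372 genes. Of 10 enteroendocrine genes 7 were called higher, 1 of them having passed the filter through its DSS_CS libraries alone. The part of these cells in the result was not tested. The comparisons share groups, so their values are set side by side and are not independent of each other.

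Under normal water none of the 6 genes tested was called between CS and VD, beside 0.407% of 13275 genes called in either direction, 24 higher and 30 lower (21 and 14 after rescaling to a sum of 1000000 FPKM). All 6 differences were negative, and 3 of them, those of Prph (-0.53 ± 0.11, adjusted p = 0.0752), Tubb3 (-0.64 ± 0.14, adjusted p = 0.0920) and Uchl1 (-0.66 ± 0.16, adjusted p = 0.109), had an unadjusted p under 0.05. In these 3 genes every CON_CS library lay below every CON_VD library, against 4.41% of all genes tested. Vip was at -0.44 (95% interval -0.93 to 0.05), Ret at -0.19 (-0.48 to 0.10) and Tac1 at -0.03 (-0.35 to 0.29). Nos1, Elavl4 and Chat were below the filter.

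Other genes of neurons were grouped in lists. Of 19 further pan-neuronal genes, 16 passed the filter in the delivery comparison under DSS, 2 of them through their DSS_CS libraries alone. Of the 16, 9 were higher in CS, 1 of those 2 among them, and none lower, beside 7.89% of all genes called higher. The median of the 16 was 0.71 beside 0.06 over all genes. The calls of smallest p were Hand2, a transcription factor of enteric neuron development (1.24 ± 0.18), Map1b, a microtubule-binding protein (0.91 ± 0.16), Stmn2, a tubulin-binding protein of growing axons (0.70 ± 0.14), and Gap43, a growth cone protein (1.03 ± 0.20), with adjusted p from 0.0299 to 0.0313. These delivery calls rested on the set of libraries like those of the 9 genes: none of the pan-neuronal list was called without DSS_VD replicate 1, DSS_VD replicate 2 or DSS_CS replicate 3, with no filter, or without the libraries that held Pbsn, where the median was 1.07. The count was 1 without DSS_CS replicate 2, 4 without DSS_VD replicate 4 and 6 without DSS_VD replicate 3 or DSS_CS replicate 1. In the interaction 11 of 16 were higher and none lower, beside 6.68% of all genes, and 9 to 12 when 1 library was left out. Without the libraries that held Pbsn 11 of 13 were higher. Of the 16, 2 passed the filter through their DSS_CS libraries alone, 1 of them called. Under DSS 5 of 10 rose in VD, beside 24.0% of all genes, 1 of the 5 having passed the filter through its DSS_VD libraries alone. In CS 16 of 16 rose, beside 34.4%, and 7 of these 16 passed the filter through their DSS_CS libraries alone. Under water none of 9 was called between deliveries.

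Among 18 further genes for transmitters, 10 were tested between deliveries under DSS and 5 were higher in CS, beside 7.89% of all genes. Slc18a3, 1 of the 5, passed the filter through its DSS_CS libraries alone. Penk, the enkephalin precursor, had a mean of 19.1 FPKM in DSS_VD and 49.4 in DSS_CS (1.25 ± 0.27 on the log2 scale, adjusted p = 0.0328). Cartpt, a peptide precursor, differed by 1.63 ± 0.36 (adjusted p = 0.0339) and Calca, the calcitonin gene-related peptide gene, by 0.87 ± 0.23 (adjusted p = 0.0418). Calca reached 1 FPKM in all 4 DSS_CS libraries but in only 1 of 4 DSS_VD libraries, so it passed the filter mainly through DSS_CS. Under DSS 4 of 8 rose in VD, beside 24.0% of all genes, Gal (galanin) by 1.73 and Penk by 1.32 among them. Ddc, which makes dopamine and serotonin, fell by 1.14 in VD, beside 2364 of 13933 genes called lower. In CS 7 of 10 rose and 1 fell, beside 34.4% of all genes called higher and 3729 of 14372 called lower. Calca and Slc18a3, 2 of the 7, passed the filter through their DSS_CS libraries alone. The interaction was called higher for 8 of 12, beside 6.68% of all genes, and for 2 to 7 when 1 library was left out. Slc18a3, 1 of the 8, passed the filter through its DSS_CS libraries alone. Between deliveries under DSS, 0 to 3 genes of this list were called higher when 1 library was left out, none with no filter, and Gal alone without the libraries that held Pbsn.

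The called receptors moved in both directions. Of 14 receptor and effector genes 8 were tested between deliveries under DSS. Of the 8 differences 7 were positive, with a median of 0.66 (log2) beside 0.06 over all genes. Of the 8 genes, 1 was called higher and 1 lower, beside 7.89% and 5.54% of all genes. Tacr1, the substance P receptor, was higher in CS (4.31 FPKM in DSS_VD and 9.51 in DSS_CS as means, 0.91 ± 0.25 on the log2 scale, adjusted p = 0.0470). Vipr1, a receptor for vasoactive intestinal peptide that epithelium also expresses, was lower (25.0 and 8.76 FPKM, -1.54 ± 0.36, adjusted p = 0.0347). Under DSS Tacr1 rose by 1.93 in VD and 2.80 in CS, having passed the filter through its DSS libraries alone, and Vipr1 fell by 1.07 in VD and by 2.30 in CS. In the list of Ret and endothelin receptor B signalling, which guide enteric neuron development, 7 of 9 genes were tested. Of these, 4 were higher in CS under DSS, beside 7.89% of all genes. These were Ece1, which activates endothelins (0.97 ± 0.19), the Ret co-receptor Gfra1 (0.71 ± 0.16), the ligand Artn (0.69 ± 0.17) and the receptor Ednrb (1.16 ± 0.29), with adjusted p from 0.0313 to 0.0377. Several of these genes are used by cells other than neurons. Gfra1 reached 1 FPKM in all 4 DSS_CS libraries but in only 1 of 4 DSS_VD libraries, so it passed the filter mainly through DSS_CS. In both lists the delivery calls under DSS were lost with no filter and without the libraries that held Pbsn, and leaving out 1 library left 0 to 1 receptor higher and 0 to 3 signalling genes higher.

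Markers of other tissue moved with the same groups. Summed over 10 smooth muscle genes, FPKM was 1038 to 1351 in DSS_VD and 1165 to 2771 in DSS_CS, and none of the 10 was called between them, though all 10 differences were positive, with a median of 0.64; Tagln and Acta2, its highest genes, had means of 389 and 298 in DSS_VD and of 540 and 462 in DSS_CS. Summed over 10 epithelial genes FPKM was 2237 to 4767 in DSS_VD and 789 to 2372 in DSS_CS. Of these genes 6 were called lower in CS and none higher, beside 5.54% of all genes called lower. Epcam, an epithelial adhesion protein, had a mean of 467 FPKM in DSS_VD and 176 in DSS_CS. DSS_CS replicate 2 had the highest sum of the 9 neuron genes (243 FPKM), the highest smooth muscle sum and the lowest epithelial sum, and was the highest DSS_CS library for 8 of the 9 genes. The sum of red cell genes was 241 to 975 FPKM in DSS_VD and 903 to 9731 in DSS_CS. Of these genes 3 of 5 were called higher, beside 7.89% of all genes. The sum of 6 adipose genes was 1.56 to 15.3 FPKM in DSS_VD and 15.98 to 135 in DSS_CS, with no overlap. The 135 was in DSS_CS replicate 4, which held Pbsn. In CON_VD, on water, the sum was 0.338 to 65.1. Of 2 adipose genes tested between deliveries under DSS 1 was called higher, Cfd (adipsin) at 3.54 ± 0.93, beside 7.89% of all genes. The alternatives were not read for this list. The part of tissue makeup in the differences was not tested.

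Set against smooth muscle in the same library, the 9 genes together held 68.7 to 79.9 FPKM per 1000 FPKM of smooth muscle genes in DSS_VD and 86.4 to 105 in DSS_CS. Under water the values were 14.0 to 18.4 in CON_VD and 9.22 to 12.1 in CON_CS. On this ratio the groups did not overlap. The medians of the DSS groups were 76.4 and 89.7, closer to each other than those of the sums themselves, which were 84.4 (range 81.0 to 92.9) and 151 FPKM (range 107 to 243). Per 1000 FPKM of epithelial genes the 9 genes held 17.4 to 36.2 in DSS_VD and 72.2 to 308 in DSS_CS, without overlap. The medians of this epithelial ratio were 30.9 and 102. Per FPKM of 10 glial genes the 9 genes held 4.95 to 6.12 in DSS_VD and 5.27 to 6.44 in DSS_CS, with overlap. Under water the glial ratio was 5.97 to 10.1 in CON_VD and 4.33 to 5.76 in CON_CS. Its median was 8.06 in CON_VD and 5.80 in DSS_VD. Erbb3, which was lower in DSS_CS by 1.67 on the log2 scale and which epithelium also expresses, was left out of this ratio after its values were seen. Of 11 glial genes 8 were tested between deliveries under DSS: Cdh19, a cadherin of glia, was higher (0.83 ± 0.19, adjusted p = 0.0339) but passed the filter through its DSS_CS libraries alone, Erbb3 was lower and the other 6 were not called. The 10 marker genes of enteroendocrine cells summed to 379 to 657 FPKM in DSS_VD and 448 to 916 in DSS_CS. These cells can express Tac1 and Uchl1. Of the 10 genes, 1, Sst (somatostatin), was called higher in CS. Over all genes, 7.89% were called higher and 5.54% lower. Of these delivery calls in other cells under DSS, none was made with no filter or without the libraries that held Pbsn in the epithelial, red cell, glial and enteroendocrine lists. Leaving out 1 library left 0 to 8 epithelial genes lower, 0 to 2 red cell genes higher and no glial gene higher.

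**Figure D4:**
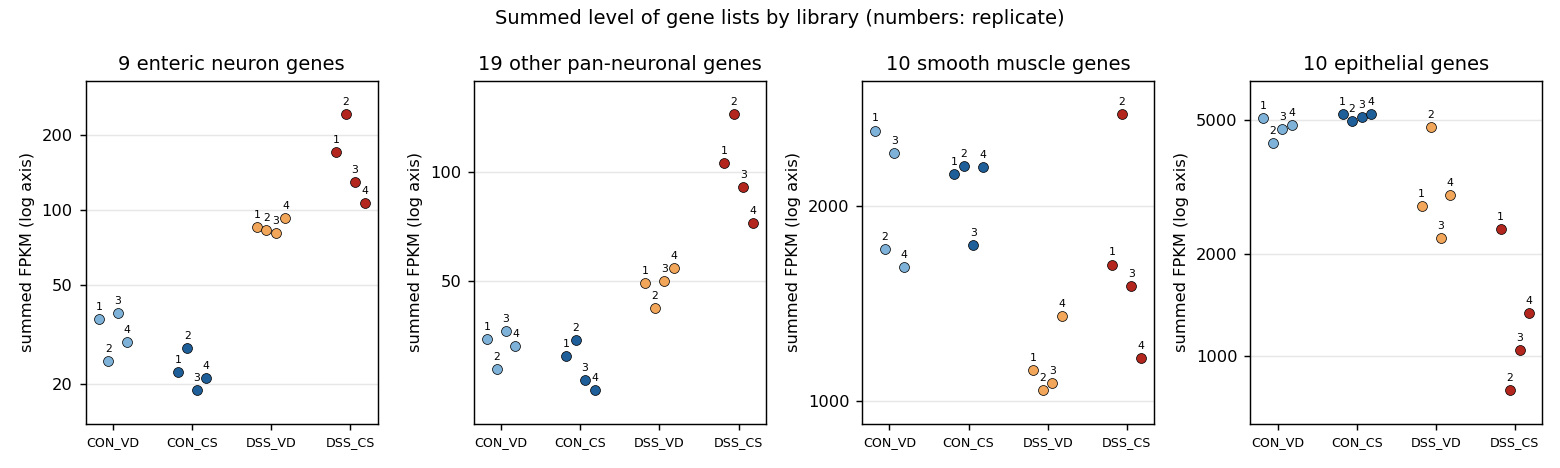
Summed FPKM on log axes of the 9 genes, of 19 other pan-neuronal genes, of 10 smooth muscle genes and of 10 epithelial genes in each library, with replicate numbers above the points. DSS_CS replicate 2 is the highest point for neuron and smooth muscle genes and the lowest for epithelial genes, and the 9 genes sum to 107 to 243 FPKM in DSS_CS.

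After the group means were subtracted, the genes still varied together from library to library. Pearson's r of each gene with the mean of the other 8, over 16 libraries on the log2 scale, was 0.963 for Elavl4, 0.944 for Prph, 0.922 for Tubb3, 0.896 for Uchl1 and 0.887 for Nos1. It was lower for Vip (0.771), Chat (0.715), Ret (0.684) and Tac1 (0.602). All values of a library share its tissue piece and its scaling, so these are descriptions. DSS_CS weighs most in them: the mean of the 9, centred per gene, spanned 0.581 to 1.621 there and 0.257 to 0.410 in DSS_VD. It spanned -0.715 to -0.407 in CON_VD and -0.985 to -0.663 in CON_CS. Of 12123 other genes, those most like the mean of the 9 across libraries were Penk (r = 0.990), Tm4sf4 (0.985), Gal (0.984), Dhrs3 (0.984), Htr2b (0.982), Syt4 (0.982), Rerg (0.981) and Scg5 (0.981). Within groups the most alike included Tm4sf4 (0.961), Fxyd6 (0.946), Penk (0.946), Sult4a1 (0.944), Nptx2 (0.939), Fam83d (0.938) and Mylk (0.937). Mylk is the myosin light chain kinase of smooth muscle.

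The order of the levels changed little between groups. By mean FPKM, Vip came first and Ret, Nos1, Elavl4 and Chat were the last 4 in each group. Between them, Uchl1, Prph, Tac1 and Tubb3 followed each other in CON_VD with overlapping ranges. In DSS_VD, Tac1 was second with a mean of 27.0 FPKM, and its range overlapped that of Vip (30.02) and not that of Prph (8.76). In DSS_CS, Tac1 (23.2), Prph (21.2), Tubb3 (16.3) and Uchl1 (16.1) were neighbours with overlapping ranges, all below Vip (73.3).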

How the data were processed

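Total RNA of colon was sequenced in 16 libraries, 4 per group, with groups taken from the sample titles. The values are FPKM in a single table of 39328 genes, as deposited by the authors; the submitters' processing notes name cutadapt, FastQC and the build GRCm38, while aligner, quantifier, annotation and strand handling were not given in the sources used here. No counts were used and the depth is unknown; gene values are limited in precision by the 4 libraries of a group.

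Symbols came from a reference table (39181 identifiers matched, 147 did not), positions from GENCODE on GRCm38, and promoters from RefSeq, with an entry for 8 of the 9 genes. limma 3.58.1 in R 4.3.3 was run on log2(FPKM + 1) with a trend in the variance prior, on genes with at least 1 FPKM in at least 4 of the fitted libraries. Each comparison of a pair of groups used its own 8 libraries, and the interaction used 16. P-values are two-sided, with Benjamini-Hochberg adjustment over all genes tested and a threshold of 0.05. The script was tested on simulated data. Figures were drawn with matplotlib 3.10.9 and tables made with pandas 2.3.3.

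All 9 members are named. From the other lists, up to 4 called genes of smallest p per comparison are named, or up to 2 of highest mean where none was called. The genes most like the members are the 8 with the highest r to their mean, among genes of mean FPKM of at least 1; Pbsn and Epcam mark other tissue. The members and lists were chosen with earlier results of these data known. Snap25 is named as a defining marker of neurons, and 1 gene that the rule names is not reported here. Alternatives changed the scaling, the pseudocount, the filter, the variance prior, the pooling of groups and the libraries, and added a replicate block; leaving out the libraries with Pbsn above 10 FPKM was chosen after seeing the data.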

Additional observations from a re-analysis of the deposited data

Results flagged for a closer look

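The DSS response differed between CS and VD mice, by the interaction test, for 6 of the 8 neuron genes tested. Beside these, 6.68% of all genes tested were called higher. Elavl4, 1 of the 6, passed the filter through its DSS_CS libraries alone. The difference of responses on the log2 scale was 1.99 for Tubb3, 1.67 for Vip, 1.61 for Uchl1, 1.58 for Prph, 1.09 for Nos1 and 0.79 for Elavl4. Nos1 lost the call in 11 of 23 alternatives and Elavl4 in 8 of 18.

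Single libraries lay apart from the rest of their group in 3 of the 36 combinations of gene and group checked by Dixon's ratio at the 95% level, where chance flags about 1 in 20. Vip was at 11.8 FPKM in CON_CS replicate 2, above the other 3 libraries. Vip was at 40.5 FPKM in DSS_VD replicate 4, again the highest. Ret was at 4.09 FPKM in DSS_VD replicate 1, the lowest of its group.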

How the results depend on the processing

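For the delivery comparison under DSS, 3 members and 1923 genes were called. The members called were 5 after rescaling to a sum of 1000000 FPKM, 6 in 1 fit on all 4 groups (3855 genes), and 0 with no filter (3 genes), with the replicate block (2 genes) and without the libraries with Pbsn (6 genes). Beside these 0 counts, 6 members had an unadjusted p under 0.05 in each. Leaving out 1 library gave 0 to 4 members and 0 to 2054 genes; without DSS_VD replicate 1, where no gene was called, 4264 had an unadjusted p under 0.05. Under water, 54 genes were called, and 35 after rescaling, 3 with no filter, 7 with the replicate block and 15 without the library with Pbsn; leaving out 1 library gave 0 (without CON_VD replicate 3, with 1875 at an unadjusted p under 0.05) to 275 genes and 0 members. For the interaction, 2015 genes were called, and 1042 with no filter and 637 without the libraries with Pbsn; leaving out 1 library gave 1056 to 2515 genes and 4 to 6 members. For DSS in VD leaving out 1 library gave 4050 to 5410 genes and 5 to 6 members. For DSS in CS it gave 6950 to 7909 genes and 6 to 8 members, and 5217 genes and 5 members, all that passed the filter, without the libraries with Pbsn. Leaving out a DSS library takes Nos1 or Elavl4 below the filter in some fits.

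Tac1, never called between deliveries, changed sign: under DSS it was 0.060 and in the interaction 0.12 without the libraries with Pbsn, and under water 0.060 after rescaling. Leaving out 1 library under water gave -0.12 to 0.063, above 0 without CON_VD replicate 1 (0.025), CON_VD replicate 3 (0.028) or CON_CS replicate 3 (0.063). The cause of these changes was not tested.

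Replicate numbers did not pair the samples: deviations of same-numbered libraries had correlations of -0.278 to 0.128. With the replicate block, Nos1 lost its interaction call (adjusted p = 0.0520), leaving 5 members. Depth is unknown, and Chat, Elavl4 and Nos1 lie near or below 1 FPKM in most groups.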
